A study of Mus musculus with 4 samples.

Results

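The 7 genes Ptch1, Smo, Hhip, Sufu, Gli1, Gli2 and Gli3, which carry the Hedgehog signal from the cell surface to the nucleus, were examined in lists of accessible chromatin from mouse limbs. They were taken by name from the 22380 protein-coding genes of the GENCODE M1 annotation, and all 7 were found there. The assay was ATAC-seq, in which the Tn5 transposase cuts open chromatin, on fixed cells of forelimbs and hindlimbs at stage E11.5. The 4 libraries were 2 from embryos with a stop cassette insertion, an element placed to end transcription early, and 2 from wild-type embryos. All embryos were of the cross c57bl6.J X 129S6.sv, and the mutant and wild-type groups shared tissue and stage. The labels give neither the site nor the zygosity of the insertion, nor the number of embryos behind a library. The study concerned Maenli, a non-coding RNA locus, and engrailed-1 in limb malformation. Comparing the genotypes asks whether accessible chromatin at the Hedgehog genes differed with the cassette.

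In Hedgehog signalling, the secreted ligand binds the receptor Ptch1, which otherwise holds the membrane protein Smo inactive. Active Smo, at the primary cilium, lets the Gli zinc finger proteins escape their inhibitor Sufu and act on target genes. In the limb bud, Sonic hedgehog is made at the posterior margin and sets the number and identity of digits, in large part by limiting the repressor form of Gli3. Ptch1, Hhip and Gli1 are themselves targets of the pathway.

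The lists gave 1 summit per peak, the base at the top of a peak, with a score. A score was read only as its percentile within its own list, from the weakest peak to the strongest, because scores depend on the unknown depth of a library. The lists held 51701 to 107827 peaks, fewer in either wild-type list than in either one from embryos with the cassette. Of the limb mesenchyme genes, 7 of 11 had a summit within 1 kb of a start in all 4 lists, near the 57.5% of all protein-coding genes that did, Twist1 at the 71.6 to 80.3 percentiles among them, while 1 of 11, Tbx5, had none in any list. All 4 liver genes (Alb, Afp, Apoa2, Ttr) were without one in every list. Ectoderm (0 of 6) and muscle precursor genes (0 of 4) had no gene with a start summit in all 4 lists, and of 4 endothelial genes Kdr had one. Of 4 neuronal genes, which a limb bud should lack, Tubb3 and Elavl4 had one in all 4 lists. Both stop cassette lists were above both wild-type lists at 25.9% of protein-coding genes. Among the markers this held at 3 of 4 blood genes (Hbb-b1, Klf1 and Gata1). It held at 2 of 4 muscle precursor genes (Pax3 and Lbx1, with no wild-type summit) and 1 of 6 ectoderm genes (Dlx5). It also held at 1 of 4 endothelial (Kdr) and 1 of 4 neuronal genes (Tubb3), but at 0 of 11 limb mesenchyme genes. The reverse held at the neuronal gene Elavl4 (96.8 and 94.6 in wild type against 85.4 and 94.5), as at 2.61% of protein-coding genes. The blood gene Spi1 had no summit at its starts. The start percentiles of the blood genes summed to 251 and 211 in the stop cassette lists and to 106 and 46.7 in the wild-type lists. Those of the muscle precursor genes summed to 54.7 and 181.5 against 42.7 and 60.9, which overlap. Among these, Myod1 ranked at 0 and 81.2 with the cassette and at 42.7 and 60.9 in wild type. Peak names of the wild-type libraries share 1 replicate number and differ in a sub-number, and nothing in the labels names separate embryos, so p-values measure the spread between these samples, which may be technical.

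All 7 genes had a summit within 1 kb of an annotated start in all 4 lists, as did 57.5% of protein-coding genes. Their strongest start summit, averaged over the lists, ranked highest at Smo (percentile 89.9 ± 6.83, SD, n = 4 lists), followed by Sufu (89.4 ± 2.04), Gli3 (87.0 ± 6.15), Gli2 (85.8 ± 9.68), Ptch1 (81.0 ± 6.10), Hhip (57.3 ± 15.3) and Gli1 (32.5 ± 21.6). From Smo to Ptch1, each neighbour in this order lay within the spread of the next. The values of Ptch1, from 72.2 to 86.1, lay above all values of Hhip, from 35.0 to 69.4, whereas those of Hhip and Gli1 overlapped. This separation depended on the distance, because the Ptch1 summits lay 915 to 954 bp from a start. Within 500 bp the strongest Ptch1 summits ranked at 45.3 and 78.8 with the cassette and at 67.8 and 24.6 in wild type. Those values overlap the ones of Hhip, whose summits lay within 410 bp of its start. The median of the 7 means was 85.8, against 89.7 over the 12860 genes with a start summit in all 4 lists, whose quartiles were 79.3 and 95.0. Ranked among those genes, Smo stood at the 50.6 percentile, Sufu at 48.9, Gli3 at 40.7, Gli2 at 37.6, Ptch1 at 27.6, Hhip at 7.20 and Gli1 at 0.708. Genes with more annotated starts have more windows in which a summit can be found; Smo has 1, Gli1 and Hhip 2 each, Gli2 3, Gli3 and Ptch1 4 each, and Sufu 7.

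**Figure D1:**
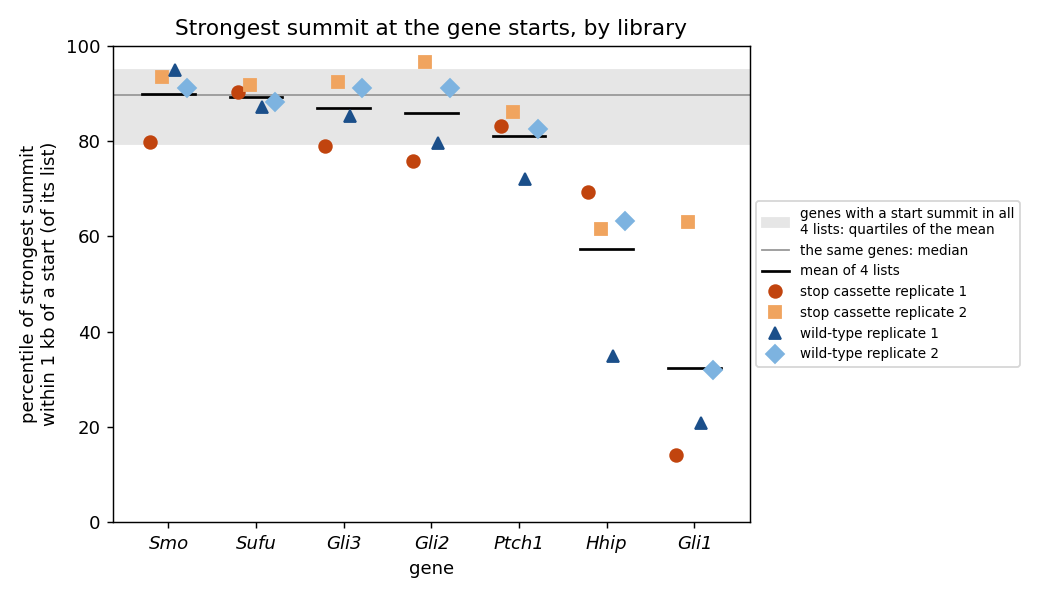
Percentile, within its own list, of the strongest summit within 1 kb of an annotated start of each gene (vertical axis), for the 4 libraries (points) with their mean (black lines); the grey band and line give the quartiles (79.3 and 95.0) and median (89.7) of the mean over the 12860 protein-coding genes with a start summit in all 4 lists. The means of 5 genes lie between 81.0 and 89.9, and those of Hhip (57.3) and Gli1 (32.5) lie below the band.

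Ptch1, the receptor (ENSMUSG00000021466.5, chromosome 13, 63610261 to 63674474, minus strand, mm9), was open over several alternative starts. Inside the start at 63665634, a region from 63664186 to 63665443 ranked at 83.2 and 86.1 with the cassette and at 72.2 and 82.6 in wild type. The strongest summit of each list lay 915 to 954 bp inside the transcript, in an intron. Both values with the cassette were above both wild-type values, but 83.2 and 82.6 lay close together. Around the farthest upstream start, at 63674474, the strongest summit ranked at 45.3 and 78.8 with the cassette and at 67.8 and 24.6 without, so the genotypes overlapped. Between these, a region upstream of the start at 63666828 ranked at 54.4, 70.2, 62.0 and 55.0 in the same order of lists. An intronic region from 63669094 to 63669658, over 1 kb from every start, was held by all 4 lists at 79.0, 82.0, 69.9 and 79.9. The start at 63615625, near the end of the gene, had 0 summits in every list. Thus 3 of the 4 regions at Ptch1 starts were held by all 4 lists.

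Letters of the genome were searched for GACCACCCA, the textbook binding motif of the Gli zinc fingers, on either strand, because Ptch1 is a classical Gli target. The region upstream of the start at 63666828, in an annotated Ptch1 intron, held it and is shown as 300 bases of the mm9 plus strand around its strongest summit, chr13:63667543-63667842, with the motif in capitals.
Ptch1 upstream of the inner start: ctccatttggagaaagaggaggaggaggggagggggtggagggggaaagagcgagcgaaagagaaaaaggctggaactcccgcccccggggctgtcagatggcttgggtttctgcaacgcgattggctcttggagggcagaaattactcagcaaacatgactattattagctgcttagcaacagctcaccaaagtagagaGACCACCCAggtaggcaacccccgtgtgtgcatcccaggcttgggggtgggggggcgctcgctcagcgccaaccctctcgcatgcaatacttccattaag

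The motif in this window, from 63667743 to 63667751, lay 26 and 54 bp from the nearest summits of the stop cassette lists and 118 and 102 bp from those of wild type. Strongest summits of the 4 lists were themselves up to 92 bp apart in this region, with a median of 100 bp over the 23894 regions held by all 4 lists.

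Smo (ENSMUSG00000001761.6, chromosome 6, 29685694 to 29711365, plus strand), the transducer that Ptch1 inhibits, has a single annotated start. It ranked at 79.9 and 93.5 in the stop cassette lists and at 94.9 and 91.2 in wild type, so stop cassette replicate 1 was lowest and stop cassette replicate 2 fell within the wild-type values. The strongest summit lay 189 to 215 bp upstream of the start in 3 lists and 575 bp inside the gene in stop cassette replicate 1. That library also had a summit upstream of the start, at 29685552, which ranked nearly the same, at 79.8. The other lists also had a summit inside the gene, 0.578 to 0.588 kb from the start. Elsewhere in the gene body only 1 region was called, in an intron 22.9 kb from the start, by both stop cassette lists alone (46.1 and 55.4).

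A region with the Gli motif also lay 16.6 kb upstream of the Smo start, in intergenic sequence nearer to a start of the neighbouring gene Tspan33, 11016 bp away. It ranked at 10.4 and 50.1 in the stop cassette lists and at 47.8 in wild-type replicate 2, and wild-type replicate 1 had no summit there. Its 300 bases at chr6:29668894-29669193 are given on the plus strand, with the motif (minus strand) in capitals.
Smo upstream region: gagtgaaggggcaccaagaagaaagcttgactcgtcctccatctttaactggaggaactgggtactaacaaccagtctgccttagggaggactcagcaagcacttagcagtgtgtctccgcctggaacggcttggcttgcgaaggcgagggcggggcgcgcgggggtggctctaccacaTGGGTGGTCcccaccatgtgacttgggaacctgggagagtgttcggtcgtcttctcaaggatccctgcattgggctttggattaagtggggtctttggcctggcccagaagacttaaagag

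Hhip (ENSMUSG00000064325.3, chromosome 8, 82490014 to 82581905, minus strand) encodes a membrane protein that binds Hedgehog ligands and so dampens the signal. Its upstream start ranked at 69.4 and 61.5 with the cassette and at 35.0 and 63.3 without, which overlap. The inner start at 82514248 had 0 summits in every list. The locus was the least populated of the 7, with 3 summits in stop cassette replicate 1, 14 in replicate 2, and 3 and 4 in the wild-type lists. Of its 9 regions, the one at the start was held by all 4 lists and 6 were held by stop cassette replicate 2 alone. A region 140.6 kb downstream of the start, beyond the gene's end, was called at 71.1 in stop cassette replicate 2 and at 31.7 and 50.7 in wild type.

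Sufu (ENSMUSG00000025231.9, chromosome 19, 46471386 to 46563294, plus strand), the cytoplasmic inhibitor of Gli proteins, had the steadiest start. It ranked at 90.3 and 91.8 in the stop cassette lists and at 87.3 and 88.1 in wild type, and all 4 values lay within 4.48 percentage points. A region at a start of the neighbouring gene Actr1a, 1.73 kb upstream of the Sufu start, ranked at a mean of 92.1. Within the gene body, intronic regions 25.9 and 47.5 kb from the start were held by all 4 lists, at means of 51.5 and 66.6. The strongest region over 1 kb from every start lay downstream of Sufu, 103 kb from its start and 1743 bp from a start of Trim8, at 82.8, 76.5, 75.2 and 90.5. The inner starts at 46532396 and 46557587 had 0 summits.

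Gli1 (ENSMUSG00000025407.5, chromosome 10, 126766945 to 126778645, minus strand), the activator whose own transcription is a common readout of the pathway, had the weakest starts of the 7. The strongest summit within 1 kb ranked at 14.2 in stop cassette replicate 1, 62.9 in stop cassette replicate 2, 20.8 in wild-type replicate 1 and 31.9 in wild-type replicate 2. Stop cassette replicates thus gave both the lowest and the highest value. The summits behind these values did not coincide: in stop cassette replicate 1 it lay 875 bp upstream of the first start, and in the other 3 lists 783 to 798 bp inside the gene. None of the 3 regions at the Gli1 starts was held by all 4 lists. With a distance of 500 bp in place of 1 kb, only stop cassette replicate 2 had a Gli1 start summit. The nearest summits of the other lists lay 516 to 875 bp from a start. At equal list length and a distance of 1 kb, only stop cassette replicate 1 had none.

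A stronger region lay inside Gli1. It spanned 126775877 to 126777385, in the intron 2.5 kb from the first start, and ranked at 76.6, 83.0, 76.3 and 53.5 (stop cassette 1 and 2, wild type 1 and 2). In each of the 4 lists its value was above that of the Gli1 starts. All 4 lists placed their strongest summit on the same base, 126776127, which occurred in 9 (0.0377%) of the 23894 regions held by all 4 lists; this coincidence was noticed after the values were seen. The other regions of all 4 lists within 50 kb of Gli1 were at starts of its neighbours, such as Mars and R3hdm2, at means of 97.3 and 97.2.

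Gli2 (ENSMUSG00000048402.8, chromosome 1, 120730709 to 120950196, minus strand), the main activator of the early response, had its strongest start summit inside the gene. At the internal start at 120879165, 71.0 kb from the first start and over a coding exon, the lists ranked 75.9, 96.6, 79.7 and 91.2. At the upstream starts they ranked 69.1, 82.7, 75.3 and 78.3, lower than at the internal start in every list. The strongest summit of each list at the internal start lay within 35 bp of the annotated position. Replicate 2 of each genotype was above replicate 1 of each genotype at both places, so the genotypes overlapped.

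Gli2 also had the most regions, 25, and all 4 lists shared 12 of these. Within its introns 7 regions were shared by all 4 lists. The strongest of these, 151.2 kb from the first start, ranked at 55.7, 87.4, 61.5 and 80.0. The highest region over 1 kb from every start, among all 7 genes, lay outside Gli2, 8.59 kb beyond its end, from 120721481 to 120722879, at 71.4, 91.0, 86.8 and 87.7. Its mean of 84.2 stood at the 90.2 percentile of the 10876 such regions of the genome held by all 4 lists.

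Gli3 (ENSMUSG00000021318.9, chromosome 13, 15555068 to 15821859, plus strand), the main source of Gli repressor in the limb, ranked at its starts at 79.0 and 92.5 in the stop cassette lists and at 85.2 and 91.1 in wild type. The strongest summit of each list lay 11 to 84 bp upstream of the first start. The gene is the longest of the 7, at 267 kb, and 15 regions were called in its body away from starts, but 2 of these were held by all 4 lists: 81.2 kb from the first start (13.2, 69.0, 68.6 and 44.8) and 201.8 kb from it (15.7, 77.2, 62.9 and 62.3). In both, stop cassette replicate 1 was far below the other 3 lists. The strongest region away from starts was intergenic, 296 kb from the first start and 29.2 kb beyond the gene's end, at 63.0, 83.6, 70.7 and 86.7.

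Gli2, Gli3 and Sufu had most of their shared regions away from starts. The strongest regions over 1 kb from every start are shown for the 3 Gli genes only. Each is given as 250 bases of the mm9 plus strand, and capitals run from the first to the last of the strongest summits of the 4 lists. These summits spread over 193 bp at Gli2, over 103 bp at Gli3 and fell on a single base at Gli1. The windows are chr10:126776002-126776251, chr1:120722093-120722342 and chr13:15850994-15851243, and none holds GACCACCCA on either strand.
Gli1 intron: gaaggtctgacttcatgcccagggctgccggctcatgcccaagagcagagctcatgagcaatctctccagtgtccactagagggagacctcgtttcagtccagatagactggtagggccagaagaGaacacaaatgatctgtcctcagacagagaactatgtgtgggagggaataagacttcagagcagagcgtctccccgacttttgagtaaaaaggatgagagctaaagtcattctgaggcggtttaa
Gli2 downstream: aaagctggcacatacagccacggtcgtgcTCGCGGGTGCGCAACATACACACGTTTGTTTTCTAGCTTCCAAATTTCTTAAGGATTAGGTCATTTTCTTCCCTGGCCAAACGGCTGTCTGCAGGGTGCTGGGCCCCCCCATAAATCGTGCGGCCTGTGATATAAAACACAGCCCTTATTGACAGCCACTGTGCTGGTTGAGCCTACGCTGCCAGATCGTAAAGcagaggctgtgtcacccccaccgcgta
Gli3 downstream: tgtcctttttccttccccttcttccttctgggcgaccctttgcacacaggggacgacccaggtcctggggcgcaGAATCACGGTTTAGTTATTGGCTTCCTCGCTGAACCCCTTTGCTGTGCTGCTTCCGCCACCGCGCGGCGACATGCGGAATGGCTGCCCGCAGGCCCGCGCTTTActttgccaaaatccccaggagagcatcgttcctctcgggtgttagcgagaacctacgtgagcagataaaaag

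**Figure D2:**
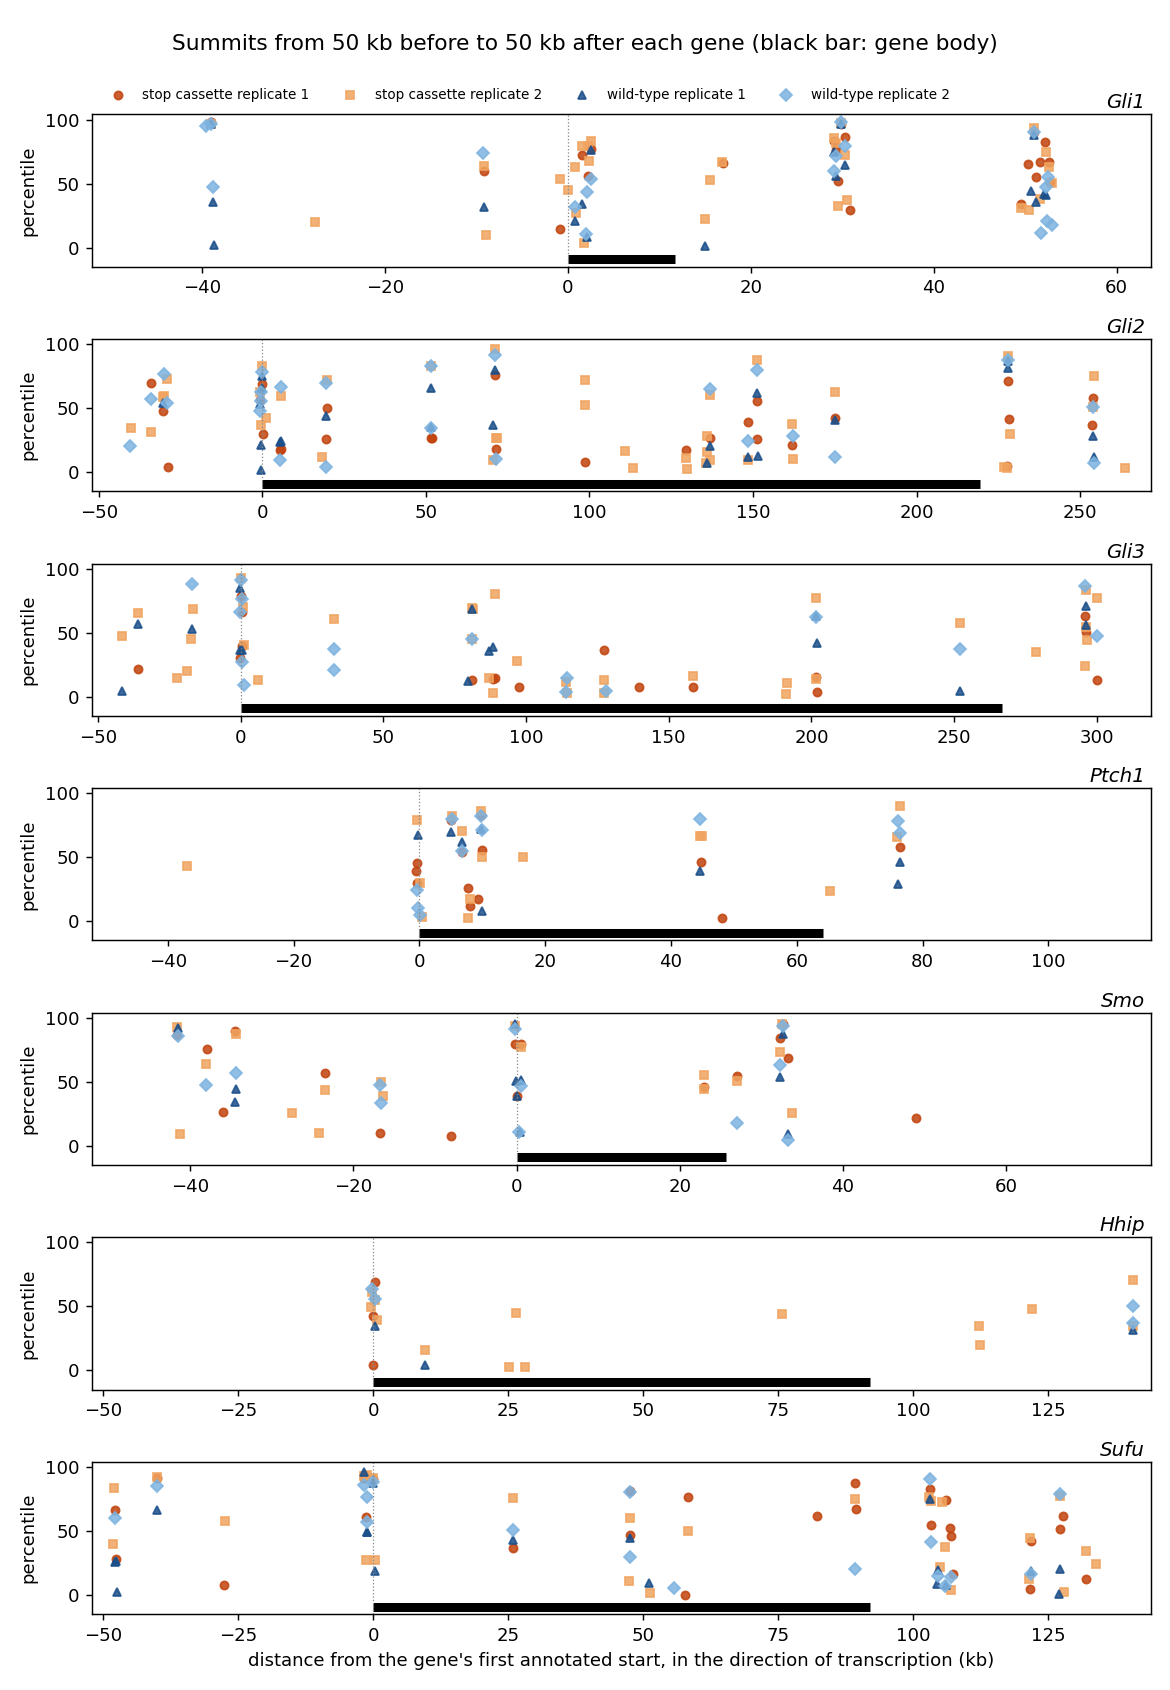
Each point is a summit of 1 of the 4 libraries, placed by its distance from the gene's first annotated start in the direction of transcription (horizontal axis, kb) and by its percentile within its list (vertical axis); black bars mark the gene bodies. Gli2 carries summits of all 4 lists along much of its body, Hhip carries few beyond its start, and the highest summits near Gli1 belong to starts of other genes.

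Merging summits within 500 bp of each other across the lists gave 120 regions within 50 kb of the 7 gene bodies. Of these, 43 (35.8%) were held by all 4 lists, against 32% of all 74669 regions and a median share of 40% over the loci of protein-coding genes with 10 or more regions. The shares were highest at Ptch1 (6 of 11), Gli2 (12 of 25) and Sufu (10 of 22), and lower at Gli1 (5 of 14), Smo (5 of 15), Gli3 (4 of 24) and Hhip (1 of 9). Regions at a start were mostly shared, 19 of 27 (70.4%, against 71.6% of all regions at starts), and of those away from starts 24 of 93 were (25.8%, against 19.2%). Relative to length, the loci held a median of 7.83 regions per 100 kb, against 4.496 over all protein-coding genes. Gli1 had 12.5 and Smo 11.9 per 100 kb, but in these loci 5 of 14 and 4 of 15 regions lay at starts of other genes. Hhip had 4.69, close to the median of all genes. The 38 regions held by 1 list came mostly from stop cassette replicate 2, the longest list, which alone held 27 of them. Over all regions it likewise held 16535 of the 26447 that were in 1 list.

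**Figure D3:**
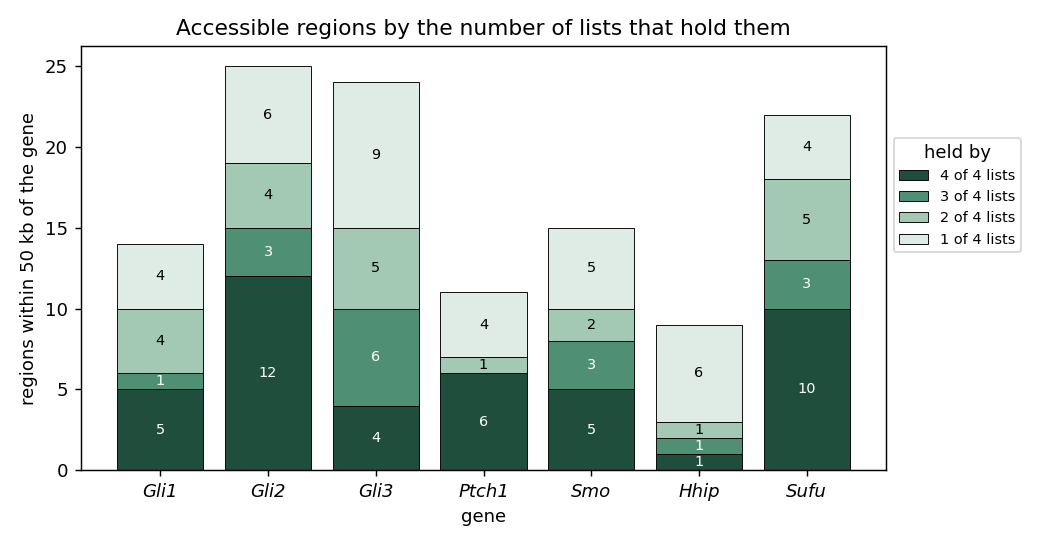
Number of merged regions within 50 kb of each gene body (bar height), divided by how many of the 4 lists held them (shades, with the count in each segment). Gli2 has the most regions held by all 4 lists (12 of 25), and at Hhip 1 of 9 is held by all 4.

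The Gli motif was found in the window of 3 of the 120 regions (2.5%), and in 0.327% of all 74585 regions with a sequence. Of the 3, 2 lay at Ptch1 starts and 1 upstream of Smo, so 2 of them belong to 1 gene. Regions within 1 kb of a start held the motif in 0.270% of cases genome-wide and the others in 0.346%, and their median GC content was 62.7% and 48.3%; the printed windows of Ptch1 and Smo have 57% each. Leaving the fifth letter free (GACCNCCCA) gave 5 of 120 regions (4.17%), against 0.971% of all, and these include the 3. Over the whole of the 7 loci, 1472 kb, the exact motif occurred 19 times: 6 times each at Ptch1 and Gli2, 2 times each at Gli1 and Hhip, and 1 time each at Gli3, Smo and Sufu. The regions covered 6.17% of that length and held 3 of the 19 matches. At Gli2 0 of 6 matches lay in a region. A match of letters is not a binding site, and no binding was measured.

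For the genotypes, start percentiles were compared by exact 2-sided permutation tests over the 4 libraries, which with 2 against 2 cannot give a p below 0.3333. Both stop cassette lists were above both wild-type lists at Ptch1 and Sufu, 2 of the 7 genes, as at 25.9% of all protein-coding genes. None of the 7 had both wild-type lists above, against 2.61% of all genes. Ptch1 averaged 84.6 ± 2.07 with the cassette and 77.4 ± 7.40 in wild type, a difference of 7.25 percentage points (SD, n = 2 each; exact permutation p = 0.3333). Without wild-type replicate 1 the Ptch1 difference was 2.02, and without wild-type replicate 2 it was 12.48. Sufu averaged 91.0 ± 1.03 and 87.7 ± 0.604, a difference of 3.33 (SD, n = 2 each; exact permutation p = 0.3333), beside a median difference of 3.32 over the genes with a start summit in all 4 lists. The other 5 genes overlapped: the differences were 12.2 at Gli1, 16.3 at Hhip, 0.827 at Gli2, -2.39 at Gli3 and -6.39 at Smo, with exact permutation p-values from 0.667 to 1. After Benjamini-Hochberg adjustment over all protein-coding genes every p was 1. Which genes were separate depended on the distance to a start. Within 500 bp it was 1 gene, Sufu, and the genotypes overlapped at Ptch1 (difference 15.8). Within 2 kb it was 2 genes, Ptch1 and Gli1 (difference 36.7 at Gli1), and the difference at Sufu was 0.807. No share over all genes was taken at these distances.

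The differences at 1 kb also changed with the length of the lists. With only the 51701 highest scores of each list, the length of the shortest, all 7 differences were negative, from -1.78 at Sufu to -13.8 at Smo. Over the 12860 genes with a start summit in all 4 deposited lists, 51.4% of the differences were then negative. Shortening lowers percentiles in the longer lists by construction and leaves wild-type replicate 1 as it is, and the median difference over the 12860 genes with a start summit in all 4 deposited lists moved with it, from 3.32 to -0.178. The median over the 7 genes moved from 3.33 to -5.97. Ptch1 then ranked at 74.3 and 71.0 with the cassette and at 72.2 and 77.0 in wild type, and Sufu at 85.2, 82.8, 87.3 and 84.3, so at neither gene were the genotypes separate. At Gli3 (67.9 and 84.4 against 85.2 and 88.2) and Smo (69.2 and 86.4 against 94.9 and 88.4) both wild-type lists were then above both stop cassette lists (exact permutation p = 0.3333 each). Across protein-coding genes, 12% had the stop cassette lists above and 12.2% the wild-type lists above at equal length. Keeping instead the scores above their pooled median, 5.83, moved the differences the other way. The median difference was then 9.92 over the 7 genes, 2 of them below 0, and 9.33 over the 12860 genes. Both stop cassette lists were above both wild-type lists at Hhip, Ptch1 and Sufu, as at 29.4% of protein-coding genes. Stop cassette replicate 1 was the lowest of the 4 lists at Gli1, Gli2, Gli3 and Smo, both as deposited and at equal length. The blood genes Hbb-b1, Klf1 and Gata1 and the muscle precursor genes Pax3 and Lbx1 were higher in both stop cassette lists as deposited. So were Dlx5, Kdr and Tubb3, while Elavl4 was lower in both. The markers were not read at equal length. At Myod1 and Myf5 the genotypes overlapped, and Spi1 had no start summit. The part of cell composition in the differences at the Hedgehog genes was not tested.

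**Figure D4:**
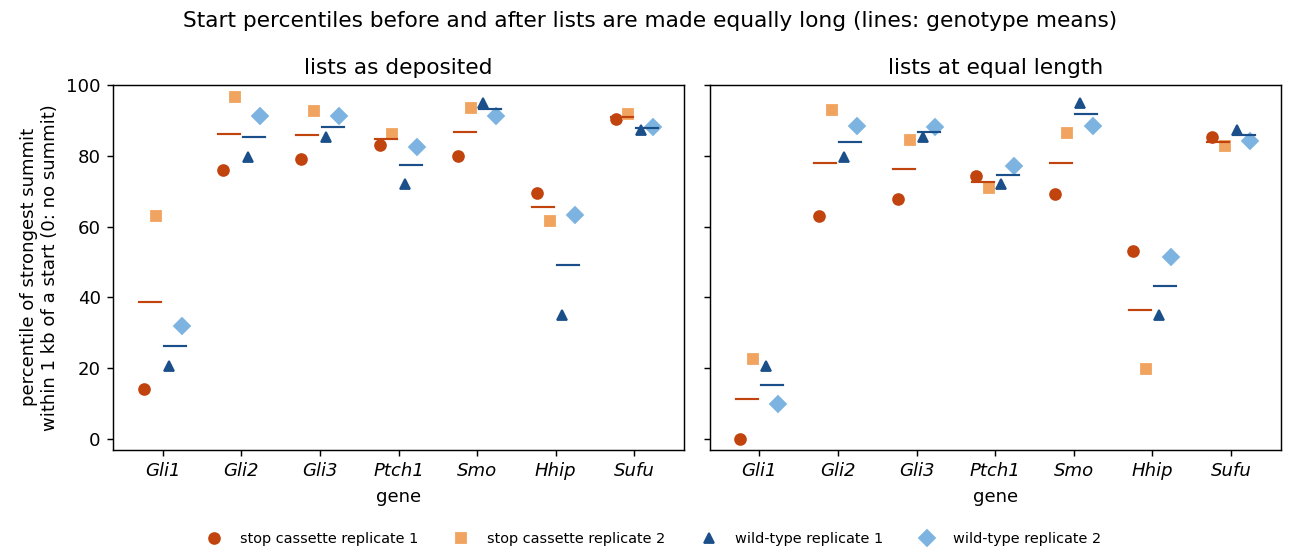
Percentile of the strongest start summit of each gene (vertical axis; 0 where a list has no summit there) in the 4 libraries (points), for the lists as deposited (left) and reduced to 51701 peaks each (right); short lines are the means of the 2 libraries of a genotype. The stop cassette mean is above the wild-type mean at 5 genes on the left and below it at all 7 on the right.

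Summits within 50 kb of each gene, per 10000 peaks of a list, overlapped between the genotypes at all 7 genes. The groups were separate with the stop cassette lists above at 12.3% of protein-coding genes and with the wild-type lists above at 18.6%. Gli2 had 3.41 and 3.71 with the cassette and 4.45 and 3.51 in wild type, and Ptch1 had 1.64 and 1.48 against 1.55 and 1.46. The differences in means ran from -0.415 at Gli2 to 0.257 at Hhip (exact permutation p from 0.667 to 1; adjusted over all protein-coding genes, 1). The value at Hhip rested on stop cassette replicate 2: without it the difference was -0.203.

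Of the 120 regions, 13 were specific to the cassette, with a summit in both of its libraries and in no wild-type library, as were 10% of all regions. Without stop cassette replicate 1 the count was 40, without stop cassette replicate 2 or wild-type replicate 2 it was 23, and without wild-type replicate 1 it was 16. The reverse pattern was found at 0 of the 120 regions and at 0.313% of all regions; leaving out stop cassette replicate 2 gave 5. The 13 regions specific to the cassette were spread over Sufu (4), Gli1 (3), Gli2 (2), Smo (2), Gli3 (1) and Ptch1 (1). The highest were in an intron of Arhgap9, 16.9 kb from the Gli1 start (66.4 and 66.7), and over an annotated UTR inside Sufu, 58.3 kb from its start (76.6 and 50.2). Next came the Smo intron already described and an intron of Tspan33 23.5 kb upstream of Smo (57.3 and 43.5). At Gli1 starts the region 857 bp upstream ranked at 14.2 and 53.9, and another region at this locus, in an intron of Ddit3, ranked at 34.2 and 30.9. In Ptch1, the region over the start at 63666828, at a coding exon, ranked at 26.3 and 17.1. The Gli2 introns held regions 98.8 kb (7.55 and 71.7) and 129.5 kb (17.6 and 11.3) from the first start, and a Gli3 intron held 1 at 158.5 kb (7.55 and 16.5). The remaining 3 near Sufu lay at -27.5, 127.8 and 132.0 kb from its start, and 1 list of the 2 ranked each at 12.2 or lower. At equal list length 3 of 81 regions were held by the stop cassette lists alone. They were those in the Arhgap9 and Smo introns, and 1 from 46560313 to 46561053 near the end of Sufu. As deposited, wild-type replicate 2 also held the last of these, at 20.7. Shares over all regions were not taken at equal length or with a library left out, so those counts have no background.

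Other genes of the pathway were read at their starts in the same way; their list was set with earlier results of these data known. Of 45 found, 38 had a start summit in all 4 lists, against 57.5% of all protein-coding genes. The median of the mean percentiles of these 38 was 80.5, against 89.7 over the 12860 genes with a start summit in all 4 lists. The genes of the cilium, kinases and protein turnover had 18 of 19, with a median of 95.8: Prkaca ranked at a mean of 99.7 and Tulp3 at 99.5, and Kif7 had no start summit in any list. Co-receptors and other receptors had 6 of 7; Cdon, which binds the ligand beside Ptch1, ranked at 94.2 to 97.0 and Gas1 at 75.1 to 87.4. Of the genes for ligands and their release 4 of 7 had one in all 4 lists, but the ligand genes Shh, Ihh and Dhh had a start summit in 1 list each, Shh at 28.5 in stop cassette replicate 2. Shh is transcribed in few cells of the limb bud, and in whole limbs a small number of open cells and weak opening in many cannot be told apart. Limb targets had 10 of 12: Grem1 ranked at 39.5 to 76.2 and Hand2 at 51.4 to 85.7, while Fgf4 had none. Both stop cassette lists were above both wild-type lists at 10 of the 45 genes, against 25.9% of all protein-coding genes, and the reverse held at 3 (Arl13b, Dync2h1 and Cul3), against 2.61%. At equal list length the counts were 3 and 12, against 12% and 12.2% of all genes.

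For each of the 7, the protein-coding gene with the most similar start percentiles over the 4 lists was taken, by the mean absolute difference. Sufu was nearest to Zfp141 (0.401 percentage points), Gli3 to Glis2 (0.508), Smo to Arhgap24 (0.618), Ptch1 to Mrpl4 (0.703) and Gli2 to Gpr173 (1.65). The weaker Hhip and Gli1 had more distant neighbours, Vat1 (3.06) and Celsr3 (4.06). With 4 lists and 12860 genes, near neighbours are a description of rank only.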

How the data were processed

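ATAC-seq peak lists of 4 libraries were used, 1 list per library, with peaks called per library. Per the submitters' processing notes, Bowtie2 2.2.6 and Picard were used on mm9; per the names inside the lists, duplicate and mitochondrial reads were removed at a mapping quality of 30. The peak caller, the shift of reads for Tn5 and any control are not given in the sources used here. The score in the deposited lists was read as −log10 of a p-value or q-value, from its lowest value of 1.30; depth is unknown. Genes and starts came from GENCODE M1 (NCBIM37, the same build; 0 summits lay beyond a chromosome's end).

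A start summit lay within 1 kb of an annotated start; a list without one counted as percentile 0. Summits extended by 250 bp were merged into regions, held by a list with a summit in them. Regions named are the strongest at starts and away from them, genotype-specific ones and those with the Gli motif; others were named after their values were seen. The members and gene lists were chosen with earlier results of these data known. Of the listed genes, Disp1 was not matched, and Spi1 was matched as Sfpi1. Permutation tests were exact, adjusted over all protein-coding genes. Alternatives were equal list length, a score above 5.83, other distances and extensions, coding starts only, replicate numbers as pairs and leaving out each library. On simulated lists of 61999 regions, 200 of 200 planted regions per genotype were recovered. Each was planted in both lists of its genotype and in neither of the other. This checks the code only and does not measure how well such regions are found in the real lists. Python 3.11.15, pandas 2.3.3 and pysam 0.24.0 were used. Values of 1 other pathway gene and 1 sequence are not reported here.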

Additional observations from a re-analysis of the deposited data

How the results depend on the processing

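Over the alternatives that kept all 4 libraries, the replicate block not counted, 44 differences between the genotypes kept their direction or became 0, and 19 reversed. Many of the 44 were the very same value and so are no support. With coding starts only, every start difference was unchanged. At 500 bp those of Gli2, Gli3, Hhip and Sufu were unchanged, and at 2 kb those of Gli2, Gli3, Ptch1, Smo and Hhip. No exact permutation p was below 0.3333. At equal list length the start percentile differences reversed to -3.96 at Gli1, -5.97 at Gli2, -6.72 at Hhip, -1.93 at Ptch1 and -1.78 at Sufu. The differences in summits per 10000 peaks reversed there to 0.290 at Gli1 and at Sufu, -0.677 at Gli3 and -0.193 at Hhip. They were 0 at Ptch1 and at Smo. With scores above 5.83 they reversed to 0.643 at Gli1, -0.579 at Gli3, -0.235 at Ptch1, 0.750 at Smo and 1.19 at Sufu. With 20 kb in place of 50 kb they reversed to 0.0618 at Gli1 and -0.0586 at Gli3, and with 100 kb to -0.264 at Ptch1, 0.188 at Smo and 0.315 at Sufu. Reduced lists hold fewer peaks by construction; beyond that the cause was not tested.

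Start summits in every list were found for 5 to 7 genes, without Gli1 at equal length and at 500 bp, and without Gli1 and Hhip at scores above 5.83. That threshold left 74 regions, 20 of them in all 4 lists. Stop cassette-specific regions numbered 3 at equal length and 8 within 20 kb, and an extension of 100 bp gave 1 wild type-specific region. Shares over all regions were not taken in these settings, so the counts have no background. The motif count was 3 also when whole regions were searched, an alternative chosen after seeing the data.

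Leaving out 1 library at a time, the start difference ranged from -12.2 to 36.6 at Gli1, -9.53 to 11.2 at Gli2, -9.13 to 4.35 at Gli3 and -13.2 to 0.410 at Smo; each lowest value was without stop cassette replicate 2 and each highest without replicate 1. At Ptch1 it ranged from 2.02 to 12.48 and at Hhip from 2.16 to 30.5, each lowest without wild-type replicate 1 and highest without wild-type replicate 2, and at Sufu from 2.60 to 4.06. Summits per 10000 peaks differed by -0.809 to 0.0436 at Gli1, -0.887 to 0.0568 at Gli2, -0.469 to 0.534 at Gli3, -0.203 to 0.716 at Hhip, -0.0201 to 0.140 at Ptch1, -0.363 to 0.0831 at Smo and -0.716 to 0.330 at Sufu. Stop cassette-specific regions ranged from 16 to 40 (40 without stop cassette replicate 1, 23 without stop cassette replicate 2 or wild-type replicate 2), as 1 list then stands for its genotype, and wild type-specific ones from 0 to 5 (5 without stop cassette replicate 2). No share over all regions was taken with a library left out.

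With the replicate number as a block, the differences are the same by construction, 7.25 at Ptch1 and 3.33 at Sufu, and sign flips of 2 pairs cannot give a p below 0.5. Same-numbered libraries deviated together, with a correlation of 0.198 over start percentiles, but the labels give no shared origin, so the number was not used as a pairing.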
